A study of Mus musculus with 480 samples.

Results

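The comparison set 97 single cells annotated as club cells against those annotated as alveolar type 2 (AT2) cells, 246 cells in all of the 480 sequenced, chosen by mouse line and annotated subtype. Club cells came from the mouse line called Scgb1a1-TD in the labels (genotype Scgba1a1-CreER;R26-tdtomato, spelled as deposited), in which a tamoxifen-responsive Cre recombinase under the Scgb1a1 gene switches on the red reporter tdTomato. AT2 cells came from Sftpc-TD (Sftpc-DreER;R26-RSR-tdtomato), in which a Dre recombinase under Sftpc does the same. All cells of both groups were therefore red, were sorted as lung epithelium and carried a transgene that encodes an oestrogen-receptor fusion. Club cells filled 22 wells of plate 2, 60 of plate 3 and 15 of plate 4, and AT2 cells filled 60 wells of plate 4 and 89 of plate 5. Cell type and line thus differed together on every plate of this comparison, plate 4 included. Plate differed with them except on plate 4. A further line, BASCs-Tracer, carries Sftpc-DreER and Scgba1a1-CreER with the reporter R26-RSR-LSL-tdtomato, which needs both recombinases, and gave 15 more club and 6 more AT2 cells that the main comparison did not use. Of these, 7 club and 4 AT2 cells were on plate 1, and 8 club and 2 AT2 cells on plate 2. The labels state neither age, sex nor tamoxifen dosing and name no animal, so each line counted as 1 sample and no test between groups was run.

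Club cells are secretory cells of the conducting airway that release secretoglobins and detoxify inhaled chemicals with cytochrome P450 enzymes. AT2 cells line the alveoli, where they make pulmonary surfactant, a film of phospholipid and surfactant proteins stored in lamellar bodies. In mice AT2 cells are also known for lysozyme and for major histocompatibility complex (MHC) class II genes, which is unusual outside the immune system.

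Levels are reads of a gene per 1000000 reads (CPM) after summing the cells of a group, and ratios are log2 of club over AT2 cells with 1 CPM added to both, which understates the ratio of a gene that is low in 1 group. A gene counted as higher or lower at a 2-fold ratio. Intervals are at 95%, exact Poisson for CPM and Clopper-Pearson for a share of cells, and they cover counting error only, because the reads carry no molecular identifiers and cells share an animal or several. A CPM is not divided by transcript length, so levels are compared between groups and not between genes.

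The 4 marker genes lie on 4 chromosomes of GRCm38: Scgb1a1 at chr19:9083636-9087958, Cyp2f2 at chr7:27119909-27133660, Sftpc at chr14:70520949-70524081 and Lyz2 at chr10:117277331-117282321. Promoters are shown for genes that separated the groups: Cyp2f2 and the second secretoglobin gene Scgb3a1, both higher in club cells, and the neighbouring lysozyme genes Lyz2 and Lyz1, both lower. Each is the 250 bases before the RefSeq start on GRCm38.p6, given 5′ to 3′ on the gene's strand, with the letters CAAGTG (the core that NKX2 homeodomain proteins bind) and TGTTTNC (the forkhead core) in capitals on either strand. The windows are chr7:27119705-27119954 (plus strand), chr11:49663345-49663594 (plus), chr10:117282273-117282522 (minus) and chr10:117292869-117293118 (minus).
Cyp2f2: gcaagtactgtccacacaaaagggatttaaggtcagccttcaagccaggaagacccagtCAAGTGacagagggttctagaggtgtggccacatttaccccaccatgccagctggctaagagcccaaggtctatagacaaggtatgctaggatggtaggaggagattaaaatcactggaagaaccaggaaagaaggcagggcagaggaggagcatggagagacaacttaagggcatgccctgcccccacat
Scgb3a1: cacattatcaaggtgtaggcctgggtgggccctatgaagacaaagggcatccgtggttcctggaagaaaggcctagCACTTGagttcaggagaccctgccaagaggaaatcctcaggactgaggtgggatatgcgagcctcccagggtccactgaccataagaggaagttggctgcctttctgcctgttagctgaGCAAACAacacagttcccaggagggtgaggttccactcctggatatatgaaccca
Lyz2: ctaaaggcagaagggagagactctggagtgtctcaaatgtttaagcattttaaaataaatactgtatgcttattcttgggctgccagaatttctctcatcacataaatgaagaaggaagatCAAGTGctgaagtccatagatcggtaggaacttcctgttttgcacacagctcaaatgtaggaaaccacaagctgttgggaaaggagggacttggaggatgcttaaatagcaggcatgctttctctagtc
Lyz1: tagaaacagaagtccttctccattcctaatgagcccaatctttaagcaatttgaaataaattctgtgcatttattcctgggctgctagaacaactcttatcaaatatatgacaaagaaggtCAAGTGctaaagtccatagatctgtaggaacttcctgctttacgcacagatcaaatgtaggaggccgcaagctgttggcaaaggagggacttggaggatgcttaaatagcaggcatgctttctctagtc
CAAGTG occurred once in each of the 4 windows, on the minus strand in Scgb3a1, and 11.5% of all 32536 RefSeq promoter windows of this length held it. Its first base stood at -191 in Cyp2f2, at -174 in Scgb3a1 and at -129 in both lysozyme windows. TGTTTNC occurred once, at -55 on the minus strand of Scgb3a1, and was held by 17.8% of all windows. Another motif, CCGGAAG (the core bound by ETS factors such as ETV5), was in none of the 4 and in 6.95% of all windows. No base belonged to 2 motifs. The letters were chosen with these promoters in view, and a match describes a sequence, not a bound site. Among genes 16-fold or more higher in club cells 20 windows (14.4%) held CAAGTG and 33 (23.7%) held TGTTTNC, and among genes 16-fold or more lower 13 windows (11.5%) and 17 windows did. CCGGAAG was in 5 windows (3.597%) among those higher in club cells and 3 windows (2.65%) among those lower. The Lyz1 and Lyz2 windows were 79.4% identical when aligned, with 200 identical bases, 48 differing bases and 4 gap bases.

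Cells were first set against their labels with 2 marker lists. The subtype labels may rest on these same counts, so the lists are no independent check of them. Reads assigned to genes totalled 97171266 over club cells, from 4519 to 2419525 per cell (median 1082690). They totalled 192171985 over AT2 cells, from 3379 to 3781974 per cell (median 1114310). Every AT2 cell gave more reads to 16 AT2 markers than to 20 club markers, and 96 of 97 club cells gave more to the club markers. The exception was a club cell on plate 3, with 165660 CPM of Sftpc beside 133549 CPM of Scgb1a1. In all, 9 club cells reached 10000 CPM of Sftpc, 4 on plate 2, 5 on plate 3 and 0 on plate 4. Among AT2 cells, 1 cell on plate 5 reached 50094 CPM of Scgb1a1, and another on plate 5 had only 2656 CPM of Sftpc. Results that these 11 cells move by over 1.5-fold are given without them as well, a choice made after their values were seen. No doublet caller was run.

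Markers of other cell types were read as follows. Ptprc, which encodes the pan-leukocyte protein CD45 and, like Marco, Siglecf, Ear1, Ear2 and Foxj1, was named after its values were seen, stood at 0.01 CPM in club cells and 0.02 CPM in AT2 cells. Of 8 leukocyte markers only Lcp1, an actin-bundling gene, reached 5 CPM, at 122.9 CPM in club cells and 131.9 CPM in AT2 cells. The summed leukocyte list ranged from 0 to 863 CPM per club cell and from 0 to 859 CPM per AT2 cell. Of 10 alveolar macrophage markers Cd9, also an epithelial gene, had 753 CPM in club cells and 489 CPM in AT2 cells, and Cd68 had 8.48 CPM and 32.1 CPM. That list summed to between 1.56 and 3052 CPM over club cells (median 666) and between 0 and 2105 CPM over AT2 cells (median 433). Its members Marco, Siglecf, Ear1 and Ear2 had no read in either group, which allows up to 0.0309 CPM in club cells and 0.0156 CPM in AT2 cells at 3 reads, and basal, neuroendocrine and erythroid lists had no member at 5 CPM. Summed endothelial markers ranged from 0 to 2453 CPM over club cells (median 48.3) and from 0 to 4588 CPM over AT2 cells (median 0.48). In club cells 4 of 7 measured ciliated markers were 2-fold or more higher, 1 of them on plate 4 too, and 1 was lower. Over all measured genes 15.7% were higher and 19.6% lower. The master regulator Foxj1 stood at 2.35 CPM in club cells against 0.10 CPM in AT2 cells. The summed ciliated list ranged from 1.88 to 6598 CPM over club cells (median 316) and from 0 to 1212 CPM over AT2 cells (median 193). Of 13 measured markers of alveolar type 1 cells, the flat gas-exchange cells, 9 were 2-fold or more lower in club cells and none was higher, with a median log2 ratio of -2.03. Ager, a receptor typical of those cells, had 656 CPM in club cells and 2000.1 CPM in AT2 cells, and the summed list ranged from 18.8 to 10191 CPM over club cells (median 1285) and from 278 to 46938 CPM over AT2 cells (median 2843). The part of cells or RNA of other types in the results was not tested.

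The 4 markers separated the groups in nearly every cell. The choice of cells fixed part of this, since Scgb1a1 and Sftpc drive the recombinases and the subtype labels may rest on these same counts. Scgb1a1, the main secretoglobin of club cells, ranged from 113019 to 465043 CPM over club cells with a median of 257566, and from 0 to 50094 CPM over AT2 cells with a median of 240. Cyp2f2, a P450 that activates naphthalene, ranged from 5549 to 58296 CPM over club cells (median 32895) and from 0 to 1062 CPM over AT2 cells (median 18.4). For both genes all 97 club cells lay above the highest AT2 cell. Pooled, Scgb1a1 held 258576 CPM (95% interval 258475 to 258677) in club cells and 1285 CPM (1280 to 1290) in AT2 cells, a 201-fold ratio, and Cyp2f2 held 32264 CPM (32228 to 32300) and 69.3 CPM (68.1 to 70.4), a 459-fold ratio. After each cell was thinned to 100000 reads, 10 reads of Scgb1a1 were present in all 94 club cells deep enough and in 73.6% (65.8 to 80.5) of such AT2 cells. Without thinning they were present in 90.6% of AT2 cells.

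Sftpc, which encodes surfactant protein C, ranged from 220 to 165660 CPM over club cells (median 780) and from 2656 to 293683 CPM over AT2 cells (median 157460). Lyz2, a lysozyme, ranged from 50.8 to 47616 CPM over club cells (median 245) and from 1431 to 146349 CPM over AT2 cells (median 75722). The ranges of both genes overlapped between the groups. Pooled, Sftpc held 4062 CPM (4049 to 4075) in club cells and 160638 CPM (160581 to 160694) in AT2 cells, 39.5-fold lower in club cells. Lyz2 held 1468 CPM (1461 to 1476) and 74599 CPM (74560 to 74638), 50.8-fold lower. The size of both gaps rested on which plate and which cells were used. On plate 4, where club Sftpc ranged only from 496 to 1614 CPM, the log2 ratios were -7.74 for Sftpc and -7.94 for Lyz2, against -5.31 and -5.67 over all plates. Without the 11 cells named above they were -7.10 and -6.17, and the Scgb1a1 ratio was 8.42 in place of 7.65. The 24 ciliated cells of Scgb1a1-TD, which should lack surfactant protein C, pooled to 837 CPM of Sftpc and 335 CPM of Lyz2, below the club pools. The medians over cells were closer, at 780 CPM of Sftpc in club cells and 669 CPM in ciliated cells, and 245 CPM of Lyz2 in club cells and 259 CPM in ciliated cells.

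**Figure D1:**
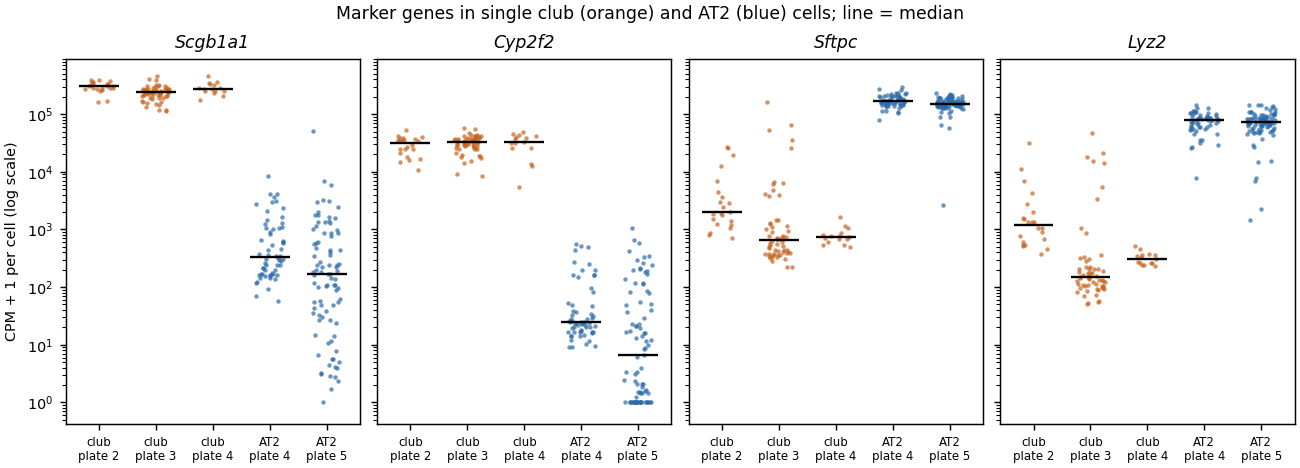
Each point is 1 cell, plotted as CPM + 1 on a log axis for Scgb1a1, Cyp2f2, Sftpc and Lyz2, with club cells of plates 2, 3 and 4 to the left of AT2 cells of plates 4 and 5, and a line at each median. Club cells with over 10000 CPM of Sftpc appear on plates 2 and 3 and not on plate 4.

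Across the transcriptome, 10445 genes off the X and Y chromosomes reached 5 CPM in either group, and their median log2 ratio was -0.04. Of these, 1644 (15.7%) were 2-fold or more higher in club cells and 2043 (19.6%) were 2-fold or more lower. On plate 4 as well, 10.6% of the 10445 were 2-fold or more higher and 14.7% were 2-fold or more lower. At 4-fold 677 genes were higher and 782 lower, and at 64-fold 39 were higher and 8 lower. Scgb1a1 alone took 25.9% of club reads and Sftpc took 16.1% of AT2 reads, so every other CPM is a share of what these leave. The 10 leading genes took 40.6% of reads in club cells and 37.8% in AT2 cells. Leaving the leading and mitochondrial genes out of the totals shifted the scale of the ratios by 0.10 (log2). Of the genes called at 2-fold, 49.9% were then higher in club cells, against 44.6% with all genes in the totals. With median-of-ratios scaling 45.97% were higher. The excess of lower genes thus remained under that scaling and was nearly gone without the leading and mitochondrial genes.

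**Figure D2:**
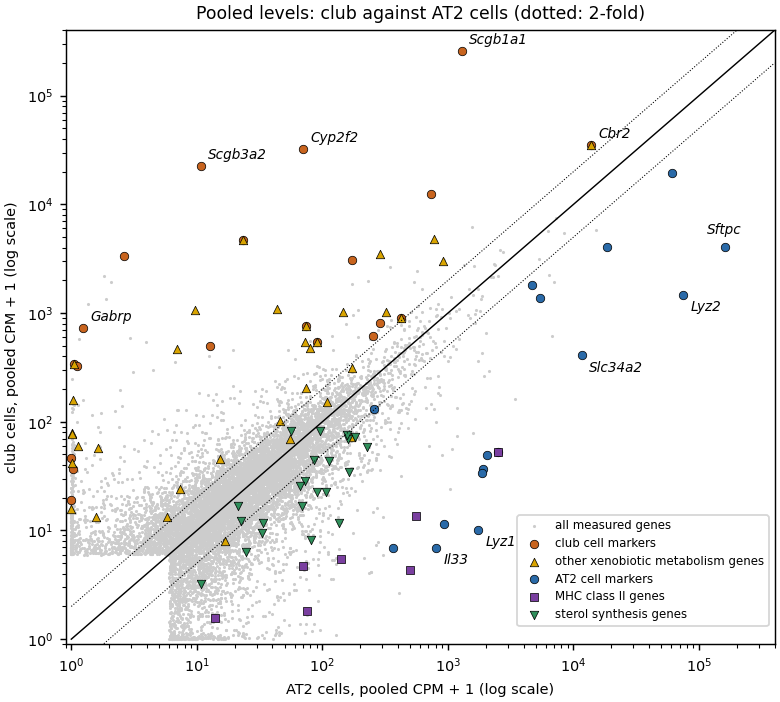
Pooled CPM + 1 in club cells (vertical) against AT2 cells (horizontal), both on log axes, for 10445 genes, with 5 gene lists coloured, a solid line at equal levels and dotted lines at 2-fold. Club and AT2 markers form opposite wings, and Cbr2 and Sftpa1 are high in both groups.

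All 4 measured secretoglobin genes were higher in club cells, with a median log2 ratio of 8.98 against -0.04 over all measured genes. Scgb3a2, which encodes a small secreted airway protein, ranged from 19.3 to 117269 CPM over club cells (median 18147) and from 0 to 196 CPM over AT2 cells (median 4.23). Its pooled levels were 22567 CPM in club cells and 9.82 CPM in AT2 cells, a log2 ratio of 11.03, and 95 of 97 club cells exceeded the highest AT2 cell. Scgb3a1 had nearly as large a pooled ratio, 10.32, but a different distribution. It ranged from 0 to 52258 CPM over club cells with a median of only 6.54, and from 0 to 42.3 CPM over AT2 cells with a median of 0, and 18 of 97 club cells (18.6%, 11.4 to 27.7) held 100 CPM or more. Its pooled 3362 CPM in club cells, against 1.63 CPM in AT2 cells, was thus carried by a minority. Scgb1c1 was 189 CPM in club cells and 34.7 CPM in AT2 cells.

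Genes that handle foreign chemicals were mostly higher in club cells. Of 12 measured P450 genes and partners 9 were 2-fold or more higher and 1 was lower, with a median log2 ratio of 2.02, and of 34 other genes of xenobiotic metabolism 29 were higher and 2 lower, with a median of 2.72. The corresponding median over all measured genes was -0.04, and 15.7% of them were higher. Cyp4b1, a P450 of fatty acids and aromatic amines, had 3102 CPM in club cells and 171 CPM in AT2 cells. Por, the reductase that passes electrons to microsomal P450s, had 816 CPM and 289 CPM, and cytochrome b5 (Cyb5a) had 1947 CPM in club cells and 535 CPM in AT2 cells. Cyp1b1, a P450 of hydrocarbons and oestrogens, had 98.5 CPM and 0.11 CPM. Cyp2b10 went the other way, with 202 CPM in club cells and 513 CPM in AT2 cells. Cyp2a5, named after its values were seen, had 45.4 CPM in club cells and no read in AT2 cells, at least 2907-fold higher when 3 AT2 reads are taken as the floor.

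Among conjugating and oxidising enzymes, retinaldehyde dehydrogenase Aldh1a1 ranged from 9.46 to 11818 CPM over club cells (median 4647) and from 0 to 1271 CPM over AT2 cells (median 1.05), with 88 of 97 club cells above the highest AT2 cell. The glutathione transferases Gstm1 and Gstm2 had 3472 CPM and 1080 CPM in club cells, against 285 CPM and 42.4 CPM in AT2 cells. Microsomal transferase Mgst1 had 4789 CPM and 771 CPM, and the carboxylesterase Ces1d had 2983 CPM in club cells and 919 CPM in AT2 cells. Carbonyl reductase Cbr2 showed that a club marker need not be absent from AT2 cells: it had 35111 CPM in club cells and 13919 CPM in AT2 cells, a 2.52-fold ratio. Gsta2, Sult1d1 and Adh7, named after their values were seen, had 3, 3 and 2 reads over all AT2 cells together. The ratio of Gsta2 was 4929 (1686 to 23907) on 7477 club reads and 3 AT2 reads, with nothing added.

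Airway defence genes split into those held by most club cells and those held by a few. Of 18 measured members 14 were 2-fold or more higher and 3 lower, with a median log2 ratio of 3.89. Over all measured genes the median was -0.04 and 15.7% were higher. Pigr, the receptor that carries IgA across epithelium, ranged from 0 to 2812 CPM over club cells (median 414) and from 0 to 381 CPM over AT2 cells (median 0). Pon1, a lactonase, had 1957 CPM in club cells and 230 CPM in AT2 cells, and the secreted inhibitor Wfdc2 had 1656 CPM and 617 CPM. Muc5b, a gel-forming mucin, ranged from 0 to 7983 CPM over club cells with a median of 2.83 and reached 100 CPM in 27 of 97 (27.8%, 19.2 to 37.9), against a range of 0 to 5.55 CPM and 0 AT2 cells. The acidic chitinase Chia1 was lower, with 294 CPM in club cells and 2110 CPM in AT2 cells, and the membrane mucin Muc1 was level at 1473 CPM and 1597 CPM.

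Reg3g (a bactericidal lectin), Bpifb1 and Bpifa1 (lipid-binding antimicrobial proteins) had pooled log2 ratios of 10.24, 9.87 and 9.81, yet their median over club cells was 0 CPM. Their pools were 2201, 1943 and 1221 CPM in club cells and 0.82, 1.08 and 0.36 CPM in AT2 cells. At 100 CPM, 10, 12 and 11 of 97 club cells held them, and 0 AT2 cells did. Those cells coincided with the Scgb3a1 cells in part: all 10 Reg3g cells, 11 of 12 Bpifb1 cells and 7 of 11 Bpifa1 cells also held 100 CPM of Scgb3a1. In all, 74 club cells held none of the 4 genes, 17 held 1 to 3 and 6 held all. Pooled Reg3g differed between club plates 2, 3 and 4, at 1.90, 2274 and 3905 CPM, and so did Bpifb1, at 2.23, 1579 and 5098 CPM. Either had at most 1.94 CPM on the AT2 plates. Few cells carried these pools: at 100 CPM, 0 of 22, 7 of 60 and 3 of 15 club cells held Reg3g, and 0, 9 and 3 held Bpifb1. The highest single cells, on plate 4, had 51838 CPM of Reg3g and 72869 CPM of Bpifb1. Scgb3a1 was held by 6, 8 and 4 club cells of these plates. A part of the plate in these differences was not tested.

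**Figure D3:**
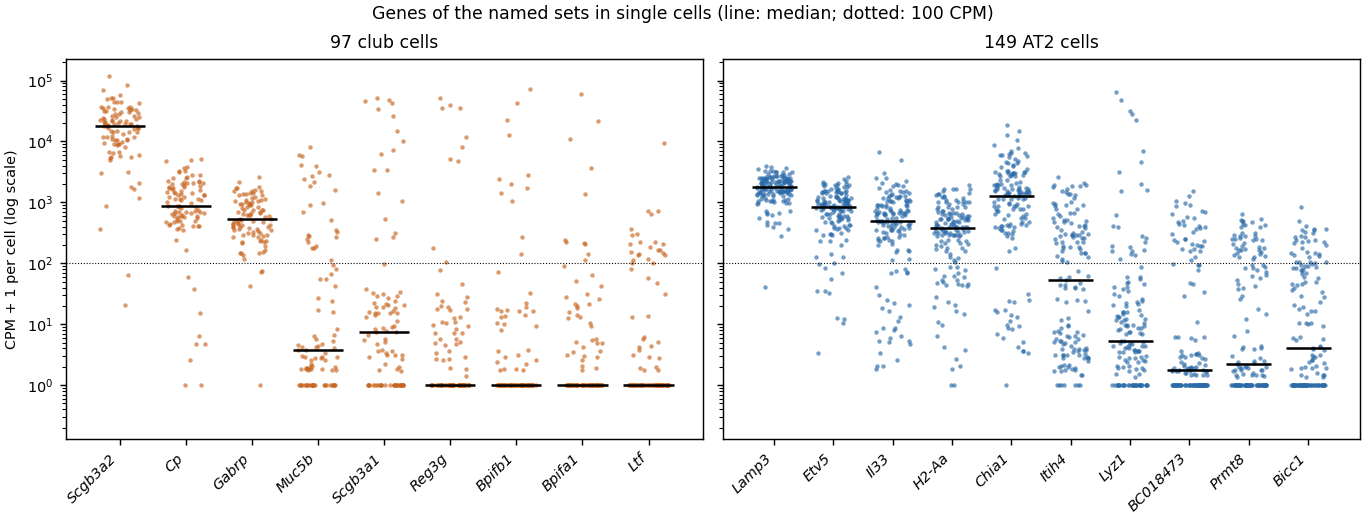
CPM + 1 per cell on a log axis for 9 genes in the 97 club cells (left) and 10 genes in the AT2 cells (right), with a line at each median and a dotted line at 100 CPM. Scgb3a2, Cp and Gabrp fill most club cells while Scgb3a1, Reg3g, Bpifb1 and Bpifa1 fill few, and Lamp3 and Etv5 fill most AT2 cells while Lyz1 and BC018473 fill few.

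Other genes among the 15 with the largest ratios were broad in club cells. Cp, which encodes the copper ferroxidase ceruloplasmin, ranged from 0 to 5148 CPM over club cells (median 882) and from 0 to 139.3 CPM over AT2 cells (median 0). Gabrp, the pi subunit of a GABA-gated chloride channel, ranged from 0 to 2607 CPM over club cells (median 534) and from 0 to 3.24 CPM over AT2 cells, and 96 of 97 club cells lay above the highest AT2 cell. Chad, a matrix protein first known from cartilage, ranged from 0 to 1960 CPM over club cells (median 169) and from 0 to 1.87 CPM over AT2 cells. These genes were thus near silent in AT2 cells. Reads of Esr1, the oestrogen receptor gene, numbered 23932 in club cells and 3 in AT2 cells, a ratio of 15776 (5398 to 76507) with nothing added. Both transgenes encode an oestrogen-receptor ligand-binding domain, and reads of the gene and of a transgene cannot be told apart in these counts.

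Barrier and transport genes also differed, beside 15.7% higher and 19.6% lower in club cells over all measured genes. Of 8 measured claudins, which set the permeability of tight junctions, 4 were higher in club cells and 1 was lower. Cldn10 had 539 CPM in club cells and 2.95 CPM in AT2 cells, and Cldn4 had 80.3 CPM and 0.69 CPM. Cldn18, the main alveolar claudin, had 54.8 CPM in club cells and 1072 CPM in AT2 cells, while Cldn3 was level at 634 CPM and 619 CPM. Of 20 measured ion and water transport genes 9 were higher and none was lower. Scnn1b, the beta subunit of the epithelial sodium channel, had 404 CPM in club cells and 11.4 CPM in AT2 cells, whereas Aqp5 and Atp1b1 fell short of 2-fold at log2 ratios of -0.88 and -0.72. The simple-epithelium keratins Krt8, Krt18 and Krt19 had 752, 859 and 489 CPM in club cells, against 329, 353 and 81.1 CPM in AT2 cells. Kdr, a VEGF receptor listed among endothelial markers, had 120 CPM in club cells and 0.71 CPM in AT2 cells, while the other 5 measured genes of that list were lower in club cells, between 1.10 and 7.78 CPM against 9.16 to 36.6 CPM in AT2 cells.

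Surfactant genes were lower in club cells but far from absent. All 4 surfactant protein genes passed 2-fold, with a median log2 ratio of -2.10 against -0.04 over all measured genes. Sftpa1 (surfactant protein A, a collectin) ranged from 1015 to 79848 CPM over club cells (median 17244) and from 1040 to 100377 CPM over AT2 cells (median 60824). Sftpb (surfactant protein B) ranged from 55.3 to 13170 CPM over club cells (median 3336) and from 611 to 44089 CPM over AT2 cells (median 17238). Sftpd (surfactant protein D) ranged from 124.6 to 5367 CPM over club cells (median 1267) and from 1515 to 11694 CPM over AT2 cells (median 5108). The ranges of all 3 overlapped, and the pooled ratios were 3.13-fold, 4.61-fold and 3.99-fold lower in club cells, against 39.5-fold for Sftpc. In the ciliated cells of Scgb1a1-TD the pools were 1216 CPM of Sftpa1, 418 CPM of Sftpb and 100.7 CPM of Sftpd. Ciliated cells of plate 3 with 213332 CPM and 158993 CPM of Scgb1a1 stayed in these pools. Their summed AT2 markers were 17900 CPM and 11249 CPM.

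Genes that process and store surfactant were lower in part. Of 18 measured members 11 were 2-fold or more lower in club cells and 1 was higher, with a median log2 ratio of -1.60. Over all measured genes 19.6% were lower. The phosphate transporter Slc34a2 ranged from 7.33 to 6528 CPM over club cells (median 128.9) and from 175 to 21220 CPM over AT2 cells (median 11255). Lamp3, a lamellar body membrane protein, ranged from 0 to 836 CPM over club cells (median 6.96) and from 40.4 to 3998 CPM over AT2 cells (median 1819), and 99.3% of AT2 cells held 100 CPM or more, against 10 club cells. Napsa and Ctsh, proteases that mature surfactant proteins, had 48.2 CPM and 364 CPM in club cells, against 2044 CPM and 1723 CPM in AT2 cells. Without the 11 cells set apart above, the log2 ratio of Slc34a2 was -5.43 in place of -4.83 and that of Napsa -6.23 in place of -5.38. Lpcat1, which remodels phosphatidylcholine into the surfactant lipid, had 77.5 CPM and 1591 CPM. Abca3, the lipid pump of lamellar bodies, fell just short at a log2 ratio of -0.996, with 128.8 CPM in club cells and 258 CPM in AT2 cells, and was chosen after its values were seen.

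The lysozyme pair behaved unlike each other within AT2 cells. Lyz1 lies beside Lyz2 on chromosome 10 and encodes a near-identical protein, so reads may be shared between them. Pooled Lyz1 was 9.12 CPM in club cells and 1742 CPM in AT2 cells, a log2 ratio of -7.43. Over AT2 cells it ranged from 0 to 64767 CPM with a median of 4.30, below the club median of 6.46. Levels of 100 CPM or more were found in 25 AT2 cells (16.8%, 11.2 to 23.8) and 3 of 97 club cells (3.09%, 0.64 to 8.77). Those 3 club cells had only 4519, 6131 and 36513 reads of all genes, too few for thinning. In cells thinned as for Scgb1a1, 10 reads of Lyz1 were present in 16.9% (11.2 to 23.9) of AT2 cells and in 0 of 94 club cells. Lyz2 passed 100 CPM in every AT2 cell. Itih4 (a plasma protease inhibitor), BC018473, the arginine methyltransferase Prmt8 and the RNA-binding gene Bicc1 were also held by part of the AT2 cells, 70, 36, 41 and 31 of them at 100 CPM, and by 0 of 97 club cells.

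Lipid synthesis genes were mostly lower in club cells. Of 30 measured genes of fatty acid and phospholipid synthesis 19 were 2-fold or more lower and 1 higher, with a median log2 ratio of -1.70, and of 22 sterol genes 17 were lower and none higher, with a median of -1.45. Scd1, which puts a double bond into fatty acids, had 611 CPM in club cells and 6799 CPM in AT2 cells. Fatty acid synthase (Fasn) had 98.2 CPM and 798 CPM, Elovl1 had 131.9 CPM and 1179 CPM, and ATP citrate lyase (Acly) had 126.2 CPM in club cells and 421 CPM in AT2 cells. In the sterol list Hmgcs1, which makes HMG-CoA, had 33.2 CPM in club cells and 161 CPM in AT2 cells. The exception was Acss2, which activates acetate and was chosen after its values were seen, with 158 CPM in club cells and 12.54 CPM in AT2 cells. On plate 4, 17 of the 19 and 13 of the 17 were also 2-fold or more lower, beside 1539 of 2043 lower genes over all measured genes. Over all plates 19.6% of measured genes were lower.

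All 7 measured MHC class II genes were lower in club cells, on plate 4 too, with a median log2 ratio of -5.37 against -0.04 over all measured genes. Cd74, the invariant chain that guides class II assembly, ranged from 0 to 1203 CPM over club cells (median 17.2) and from 79.2 to 7084 CPM over AT2 cells (median 2088). Without the 11 cells its log2 ratio was -6.25 in place of -5.58. H2-Aa, a class II alpha chain, ranged from 0 to 110 CPM over club cells (median 1.79) and from 0 to 1915 CPM over AT2 cells (median 373). Levels of 100 CPM or more were found in 77.9% of AT2 cells and in 1 club cell, which had only 36513 reads of all genes. After thinning, 10 reads of H2-Aa were present in 77.7% of AT2 cells and in 0 of 94 club cells. Ptprc stood at 0.02 CPM in the pooled AT2 cells. The class I list did not follow as a whole, with 2 of 13 measured members higher and 2 lower, beside 15.7% and 19.6% over all measured genes. H2-D1 and H2-K1, classical heavy chains, had 262 CPM and 209 CPM in club cells, against 1929 CPM and 657 CPM in AT2 cells, while B2m fell short of 2-fold at 491 CPM and 806 CPM.

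Secreted immune mediators split between the groups. Il33, an alarmin that activates type 2 lymphoid cells, ranged from 0 to 489 CPM over club cells (median 1.96) and from 0.82 to 6787 CPM over AT2 cells (median 497), with a pooled log2 ratio of -6.85. Without the 11 cells named above its ratio was -7.87, on 2.47 CPM in club cells and 812 CPM in AT2 cells. Hc, which encodes complement C5, had 35.8 CPM in club cells and 1907 CPM in AT2 cells, whereas C3 had 456 CPM and 120.9 CPM and the decay factor Cd55 had 460 CPM and 52.3 CPM. The chemokines Cxcl15 (lungkine) and Cxcl1 had 1798 CPM and 5.07 CPM in club cells, against 4636 CPM and 110 CPM in AT2 cells. Cxcl17 had 275 CPM in club cells and 68.8 CPM in AT2 cells. Cxcl5 had 68.5 CPM in club cells on 6654 reads and 0.02 CPM in AT2 cells on 3 reads, a ratio of 4386 (1500 to 21276) with nothing added. Of 10 measured cytokines and chemokines 5 were higher and 5 lower, beside 15.7% and 19.6% over all measured genes.

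**Figure D4:**
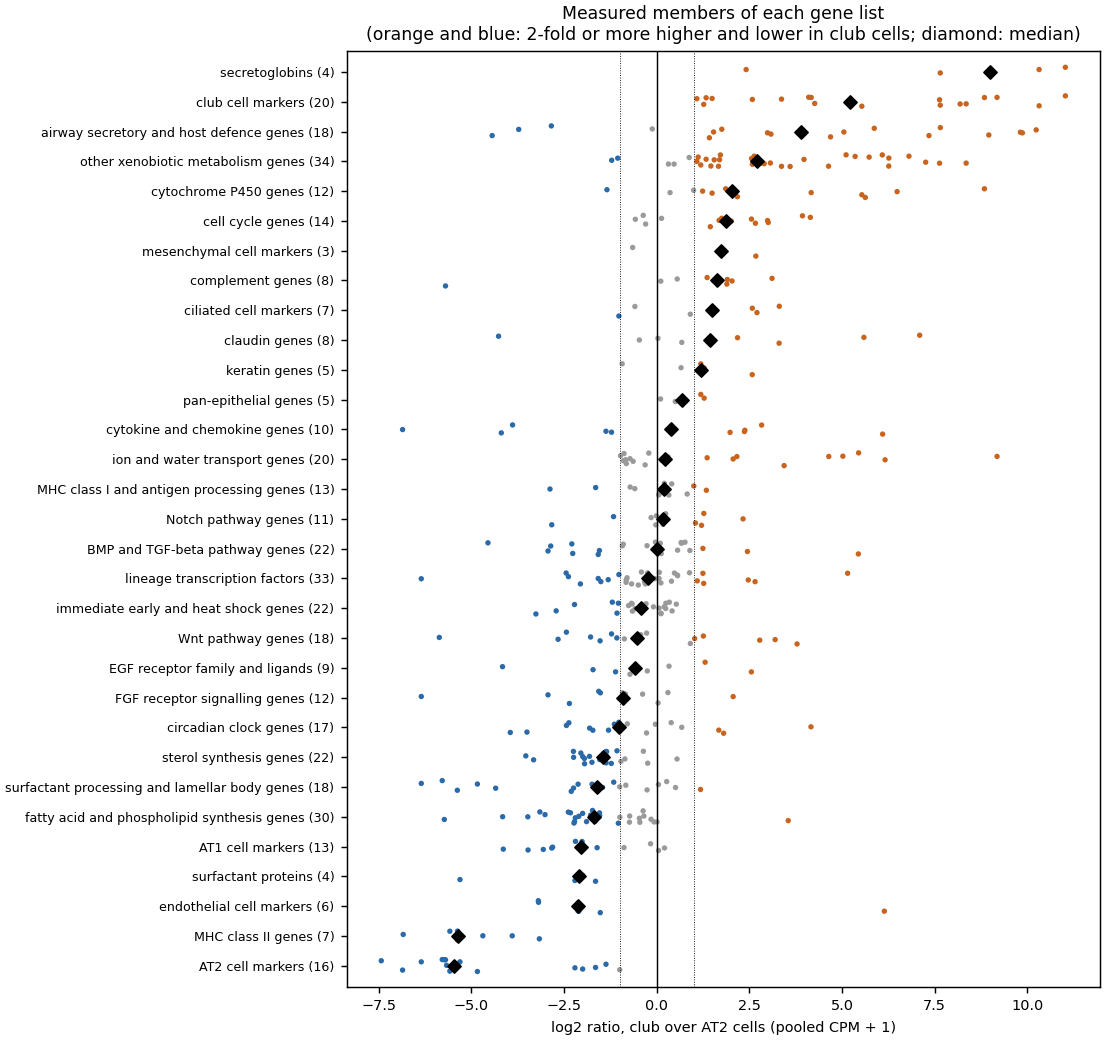
Log2 ratio of club over AT2 cells for each measured member of the lists with 3 or more of them (number in brackets), with a diamond at the list median, orange points at 2-fold or more higher in club cells and blue points at 2-fold or more lower. Secretoglobins and xenobiotic genes lie to the right, surfactant, lipid, MHC class II and AT2 marker lists to the left, and signalling lists on both sides of 0.

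Of 33 measured lineage transcription factors 6 were 2-fold or more higher in club cells and 8 lower, with a median log2 ratio of -0.24, beside 15.7% higher and 19.6% lower over all measured genes. Etv5, an ETS factor downstream of FGF signalling, ranged from 0 to 356 CPM over club cells (median 1.18) and from 2.40 to 2588 CPM over AT2 cells (median 848). Nkx2-1, the lung homeodomain factor, had 118.8 CPM in club cells and 295 CPM in AT2 cells, a log2 ratio of -1.31 that was -0.84 on plate 4. Sox2, the conducting-airway factor, was chosen after its values were seen and had 35.7 CPM in club cells and 0.03 CPM in AT2 cells. It gave a read in 42 of 94 club cells (44.7%, 34.4 to 55.3) and in 0 AT2 cells (up to 2.46%) thinned to 100000 reads, and in 49 club cells and 6 AT2 cells without thinning. Nupr1, a stress-responsive cofactor, had 612 CPM in club cells and 253 CPM in AT2 cells.

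Signalling lists mixed directions, and their counts stand beside 15.7% higher and 19.6% lower over all measured genes. In the FGF list 5 of 12 measured genes were lower in club cells and 1 higher, and the receptor Fgfr2 had 145.7 CPM in club cells and 432 CPM in AT2 cells. In the Wnt list 7 of 18 were lower and 5 higher. Nkd1, a feedback inhibitor and Wnt target, had 3.07 CPM in club cells and 236 CPM in AT2 cells, and Wls, which exports Wnt ligands, had 141.4 CPM and 330 CPM. Tcf7l2, a Wnt transcription factor, had 65.3 CPM in club cells and 26.7 CPM in AT2 cells. The ligands Wnt5a and Wnt3a, named after their values were seen, lay apart: Wnt5a had 1252 reads in club cells and 1 in AT2 cells, and Wnt3a had 0 and 1021. Both levels were low. Without the 11 cells set apart above, Wnt5a had 13.5 CPM in club cells, and Wnt3a had 5.39 CPM in AT2 cells, close to the limit of 5 CPM. In the Notch list 4 of 11 were higher and 2 lower, with Hes1, a Notch target, at 201 CPM in club cells and 82.4 CPM in AT2 cells and the ligand Jag1 at 55.6 CPM and 23.4 CPM. In the EGF list Areg, a ligand, had 2.71 CPM in club cells and 65.1 CPM in AT2 cells. In the BMP and TGF-beta list 7 of 22 were lower and 3 higher, with the protease Bmp1 at 27.5 CPM in club cells and 206 CPM in AT2 cells.

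Among genes that track the state of a cell, 10 of 14 measured cell cycle genes were higher in club cells and none lower. On plate 4 too 7 of the 10 were higher, beside 1105 of 1644 higher genes over all measured genes. Over all measured genes 15.7% were higher and 19.6% lower. Top2a and Mki67, expressed in dividing cells, had 31.7 CPM and 21.05 CPM in club cells, against 1.14 CPM and 0.24 CPM in AT2 cells. A read of Mki67 was found in only 9.28% of club cells and 4.70% of AT2 cells, so few cells carried these levels. Cyclin D1 (Ccnd1) had 282 CPM in club cells and 87.2 CPM in AT2 cells and was read in 97.9% and 74.5% of cells. Of 22 measured immediate early and heat shock genes, which dissociation can induce, 16 differed by less than 2-fold and 6 were lower in club cells, and Fos had 2758 CPM and 2392 CPM. Of 17 measured circadian genes 9 were lower in club cells and 3 higher, with a median log2 ratio of -1.02. The labels give no hour of collection, and time of day and cell type cannot be told apart.

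Plate 4 served as a repeat with both groups on 1 plate. Sharing no cell with it, plates 2 and 3 against plate 5 gave 1886 genes 2-fold or more higher in club cells, of which 924 (48.99%) were also 2-fold or more higher on plate 4 and 489 had the opposite sign there. They gave 2255 genes 2-fold or more lower, of which 1379 (61.2%) were also so on plate 4 and 348 had the opposite sign. Of 20 club markers 20 were higher over all plates and 18 on plate 4 too, with median log2 ratios of 5.22 and 5.21, and of 16 AT2 markers 15 were lower on both, with medians of -5.48 and -5.49. Cells of plate 4 are part of the pools over all plates, so these marker medians are not independent of each other. The AT2 marker median was -6.17 without the 11 cells. Every gene among the 15 largest in either direction had its direction in all 6 pairings of a club plate with an AT2 plate, since the rule asked for it, and Reg3g and Bpifb1 were nearest to losing it, with lowest ratios of 0.27 and 0.14.

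In BASCs-Tracer the same contrast could be set beside the first with other cells. There Scgb1a1 pooled to 139724 CPM over 15 club cells and 3766 CPM over 6 AT2 cells, and Cyp2f2 had 23808 CPM and 558 CPM. Sftpc had 14297 CPM in club cells and 145460 CPM in AT2 cells, and Lyz2 had 2665 CPM and 86637 CPM. All 4 markers thus had the same direction, at log2 ratios of 5.21, 5.41, -3.35 and -5.02, and 7 of the 15 club cells reached 10000 CPM of Sftpc. Subtype labels in this line may also rest on the same counts. Of 1644 genes higher in club cells of the single-recombinase lines 792 (48.2%) were 2-fold or more higher in the tracer line and 206 were 2-fold or more lower. Of 2043 lower genes 758 (37.1%) were 2-fold or more lower there and 455 were 2-fold or more higher. Of the 7 MHC class II genes 6 were 2-fold or more lower, and 16 of 20 club markers and 14 of 15 AT2 markers kept a 2-fold ratio. Of 14 airway defence genes higher in the single-recombinase lines 6 were so in the tracer line, where the list median was 0.19, and of 10 cell cycle genes 2 were, with a median of 0.18. Of 9 lower markers of alveolar type 1 cells 1 was lower in the tracer line, where the list median was 0.82, and of 9 lower circadian genes 1 was, with a median of 1.42. Pooled, Scgb3a1, Reg3g, Bpifb1 and Bpifa1 went the other way, with log2 ratios of -1.22, -1.71, -2.48 and -2.70 on 13.2 CPM or less in either group. At 100 CPM, 2, 1, 1 and 0 of the 15 tracer club cells held them, and 0 of the 6 tracer AT2 cells.

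**Figure D5:**
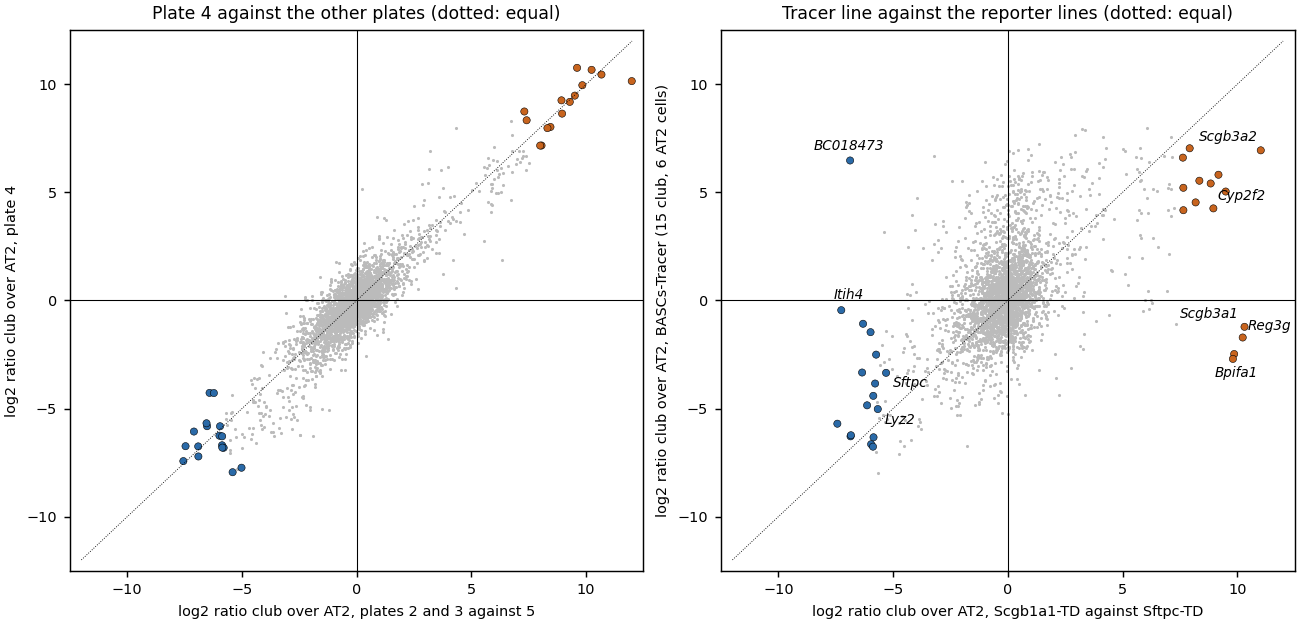
Log2 ratio of club over AT2 cells on plate 4 against plates 2 and 3 over plate 5 (left) and in BASCs-Tracer against the single-recombinase lines (right), for genes with 50 CPM or more in either group (grey), the 15 named genes higher in club cells (orange) and the named lower genes and AT2 markers (blue), with a dotted line at equality. The naming rule itself asked for 1 direction on every plate pair, plate 4 included. In the tracer line Scgb3a1, Reg3g, Bpifb1, Bpifa1 and BC018473 lie on the other side of 0.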

How the data were processed

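Per the labels' protocols, mouse lungs were digested with enzymes, cells were sorted singly, cDNA was amplified by PCR and libraries were made with Nextera XT. HISAT2, HTSeq and the build GRCm38 are named, without versions, in the submitters' processing notes. The authors deposited raw counts of reads per gene and cell, without scaling or molecular identifiers. Columns were joined to cells by name through the labels; 188 of 480 columns were not used, and 0 club or AT2 cells had identical counts. Symbols and positions came from GENCODE M21 and matched 53274 of 53379 gene identifiers; 105 had none. X- and Y-linked genes and shared symbols were left out. Reads were summed over cells and scaled to CPM, with 1 CPM added before log2; a gene counted as measured at 5 CPM in either group. Deeper cells weigh more in such sums. Shares of cells at 100 CPM, and of cells with a read of Mki67 or Ccnd1, used all reads of all cells. A shallow cell reaches 100 CPM on few reads. Shares said to be thinned used 100000 reads per cell, which left out 3 club cells and 1 AT2 cell.

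Genes were named by a rule: the 15 largest ratios per direction among those at 50 CPM or more, read in 25% of cells of the group where they are higher and with 1 direction in all 6 plate pairs; the 4 markers; and the 6 most abundant measured members of each list. The 37 lists, the members and the rule were chosen with earlier results of these data known. Median depth was 1082690 reads in club and 1114310 in AT2 cells; their thinned medians were 3792.5 and 3085 genes, and mitochondrial medians 3.20% and 3.95%. Promoters came from RefSeq (GRCm38.p6) and matched 4 of 6 genes looked up; Scgb1a1 and Sftpc did not match. The calling steps were tested on simulated data. Genes with near-identical copies (Lyz1 and Lyz2, and the Cyp2, Gstm, Bpif and H2 families) may share reads. Python 3 with numpy, pandas and scipy was used.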

Additional observations from a re-analysis of the deposited data

Results flagged for a closer look

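Named genes were marked where the ratio of club over AT2 cells was 2-fold or more with 1 sign in all 6 plate pairs of the single-recombinase lines and 2-fold or more with the opposite sign in BASCs-Tracer. This held for 16 named genes, 11.5% of those 2-fold apart with 1 sign, against 16.5% (460 of 2784) by the same rule over all measured genes. The difference between the lines was not tested, and the tracer values rest on 15 club and 6 AT2 cells. Those cells were on plates 1 and 2, and the single-recombinase comparison shared only plate 2, for club cells, so line and plate differed together in part.

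Of these, 5 named genes, which encode airway secretions, were higher in pooled club cells of the single-recombinase lines and lower in those of BASCs-Tracer. Scgb3a1 had log2 ratios of -1.22 in the tracer line and 10.32 in the single-recombinase lines, Reg3g -1.71 and 10.24, Bpifb1 -2.48 and 9.87, Bpifa1 -2.70 and 9.81, and Ltf, the lactoferrin gene, named after its values were seen, -1.08 and 7.35. Their tracer levels were 0.14 to 5.11 CPM in club cells and 1.402 to 13.2 CPM in AT2 cells, so both sides are near nothing there.

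The opposite change had larger levels behind it, except for Fzd5 and Cav1. Chia1, the acidic chitinase, had 14048 CPM in tracer club cells and 1082 CPM in tracer AT2 cells, a log2 ratio of 3.70 against -2.84 in the single-recombinase lines. Cyp2b10 had 1163 CPM and 131.2 CPM, a ratio of 3.14 against -1.34. BC018473 had 141.5 CPM and 0.60 CPM, a ratio of 6.48 against -6.87. A minority of cells carried it on both sides: 5 of 15 tracer club cells, whose median was 0, and 24.2% of Sftpc-TD AT2 cells held 100 CPM or more. The clock gene Per3 had 130 CPM and 1.80 CPM, a ratio of 5.55 against -2.43. Others were Fzd5, a Wnt receptor, at 2.70 against -1.53, Ltbp3, a TGF-beta binding protein, at 2.29 against -2.29, Cav1 at 2.22 against -3.06, Pecam1 at 1.89 against -3.19, Acat2 at 1.75 against -1.35, Tppp3 at 1.70 against -1.02 and Znrf3 at 1.51 against -1.07. Tracer levels were low for Fzd5, at 10.7 CPM in club cells and 0.80 CPM in AT2 cells, and for Cav1, at 5.52 CPM and 0.40 CPM.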

How the results depend on the processing

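Limits were 1 sample per line, the tie of cell type to line on every plate and the tie of line to plate off plate 4. Of 195 named genes over 13 settings (2535 values), 254 moved beyond 1.5-fold and 6, of 4 genes, reversed; the cause was not tested. Plate 4 alone moved 67 genes, leaving out club plate 3 moved 36 and leaving out AT2 plate 5 moved 21. Adding 10 CPM moved 69, and leaving the leading and mitochondrial genes out of the totals moved 27. With 10 CPM added, 707 genes were higher and 944 lower, and the club marker median was 4.09. Without a filter on low genes the counts were 2682 and 3230, and with 20 CPM 810 and 1132. On plate 4 alone the log2 ratios were 8.34 for Scgb1a1, -7.74 for Sftpc and -7.94 for Lyz2. Without club plate 3 Sftpc was at -6.49. The mean over cells put the AT2 marker median at -4.86. Chosen after seeing the data, leaving out 9 club and 2 AT2 cells gave 8.42 for Scgb1a1, -7.10 for Sftpc and -6.17 for the AT2 marker median. Reversed on plate 4 were Btc (-0.55), Tyms (-0.78), Cfap126 (-1.60) and Dcn (-0.35), and without club plate 3 Cfap126 (-0.48), Dcn (-0.13) and the ciliated marker median (-1.09), which was -0.59 with the 20 CPM filter. Median-of-ratios scaling moved 0 named genes. Shares with 10 reads, without thinning or with 1 read rose outside their interval for Scgb1a1 and Cyp2f2 in AT2 cells and for Lyz2 in club cells. No paired analysis was possible because each line is 1 sample and no label pairs cells; plate 4, which holds both groups, gives the within-plate values above.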

Other observations

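The labels place 1 further AT2 cell in Scgb1a1-TD, on plate 4, which entered no comparison. It held 192898 CPM of Sftpc, 75863 CPM of Lyz2, 1345 CPM of Scgb1a1 and 19.3 CPM of Cyp2f2. Its log2 ratio of club markers over AT2 markers was -4.86, inside the range of -5.86 to -0.88 over the AT2 cells of Sftpc-TD.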
